A study of Mus musculus with 2 samples.

Results

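The collagen chains are the genes whose symbol is Col, a number, the letter a and a number. Of 44 such symbols in RefSeq, 43 had a named probe on the array, among 20649 named genes in all, and no named probe matched Col12a1. The study compared silica-remodelled spleens (SiO2) with spleens that received phosphate-buffered saline (PBS), each as 1 pool of 5 female animals, at 19 days from the first injection. Each pool was hybridised to 1 one-colour Agilent array. Strain and age are not given in the sources used here, and the labels name no engineered allele for either group. The RNA of both groups was prepared with a blood RNA kit, in which red and white cells are lysed apart, and globin transcripts were depleted in both. With 1 array per group there was no test, and the values describe these pools. The spread between animals is unknown because the spleens were pooled.

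Collagens are secreted or membrane proteins whose chains wind into a triple helix built on repeats that begin with glycine. Fibrillar collagens assemble into the cables that give tissue its tensile strength, basement membrane collagens form sheets under endothelium and epithelium, and network collagens form lattices. FACIT collagens decorate fibrils, beaded filament collagens form microfibrils, and transmembrane collagens sit in the cell surface. In the spleen, collagen lies in the capsule and trabeculae, in the reticular fibres that carry the white pulp and in the walls of the sinuses.

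Each value below is a scaled signal, the processed intensity divided by the 75th percentile of its array, which was a signal of 469 for SiO2 and 670 for PBS. Differences are log2 of the SiO2 value minus log2 of the PBS value, and a gene is given by its brightest probe well above background. Of 43020 spots that were not controls, 74.9% were well above background on the SiO2 array and 75.5% on the PBS array, and no collagen spot was saturated. Between repeated spots of a probe, the difference between the arrays had a median standard deviation of 0.190 on the log2 scale for signals under 50, 0.0734 for signals of 50 to 500 and 0.0474 above 500. These deviations cover spots and not animals, pools or labelling. In pooled tissue, more cells of a type and more RNA per cell cannot be told apart.

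Of the 43 collagens, 35 were well above background in at least 1 pool, and these differed by class. The fibrillar chains had a median difference of 1.05 on the log2 scale, and 5 of 9 were higher by 2-fold or more in the SiO2 pool, where 6.62% of 16774 named genes above background were. Of these 5, Col11a1 passed the background filter through the SiO2 pool only. The 8 fibrillar chains above background in both pools had a median of 0.97. Outside that class, 3 of 26 measured chains were higher by 2-fold or more, namely Col8a1, Col6a3 and Col26a1. The network class had the highest median, 1.67, but over 2 chains only, Col8a1 (3.02) and Col8a2 (0.32). Under normexp the network median was 1.06. The 6 beaded filament chains had a median of 0.35. Basement membrane chains had a median difference of 0.15 with 0 of 5 past 2-fold, where 6.62% of named genes were higher and 3.69% lower. The transmembrane chains had a median difference of -0.85 with all 3 below 0, or 2 of 3 under normexp.

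Over all 35 measured collagens, 8 (22.9%) were higher by 2-fold or more in the SiO2 pool, beside the 6.62% of all named genes. Lower by 2-fold or more was 1 collagen (2.86%), where 3.69% of named genes were. The median difference was 0.28 for the collagens and 0.03 for all named genes, and 24 of 35 collagens (68.6%) were above 0 against 52.3% of all named genes. The split of 8 higher and 1 lower was 5 and 0 with normexp background correction, where 3.90% of named genes were higher and 1.54% lower. With quantile normalization it was 6 and 2 (5.71% and 4.36% of named genes). Among the 26 chains in the authors' deposited values it was 4 and 2 (5.48% and 4.37%). Of the 8 higher chains, 5 have a value there, and 4 of these stayed past 2-fold. The split was 9 and 0 (13.2% and 1.68%) with the B and T cell markers centred. That setting shifts the SiO2 array until the median difference of these markers is 0. No difference between classes was tested, since chains are not replicates of a pool.

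**Figure D1:**
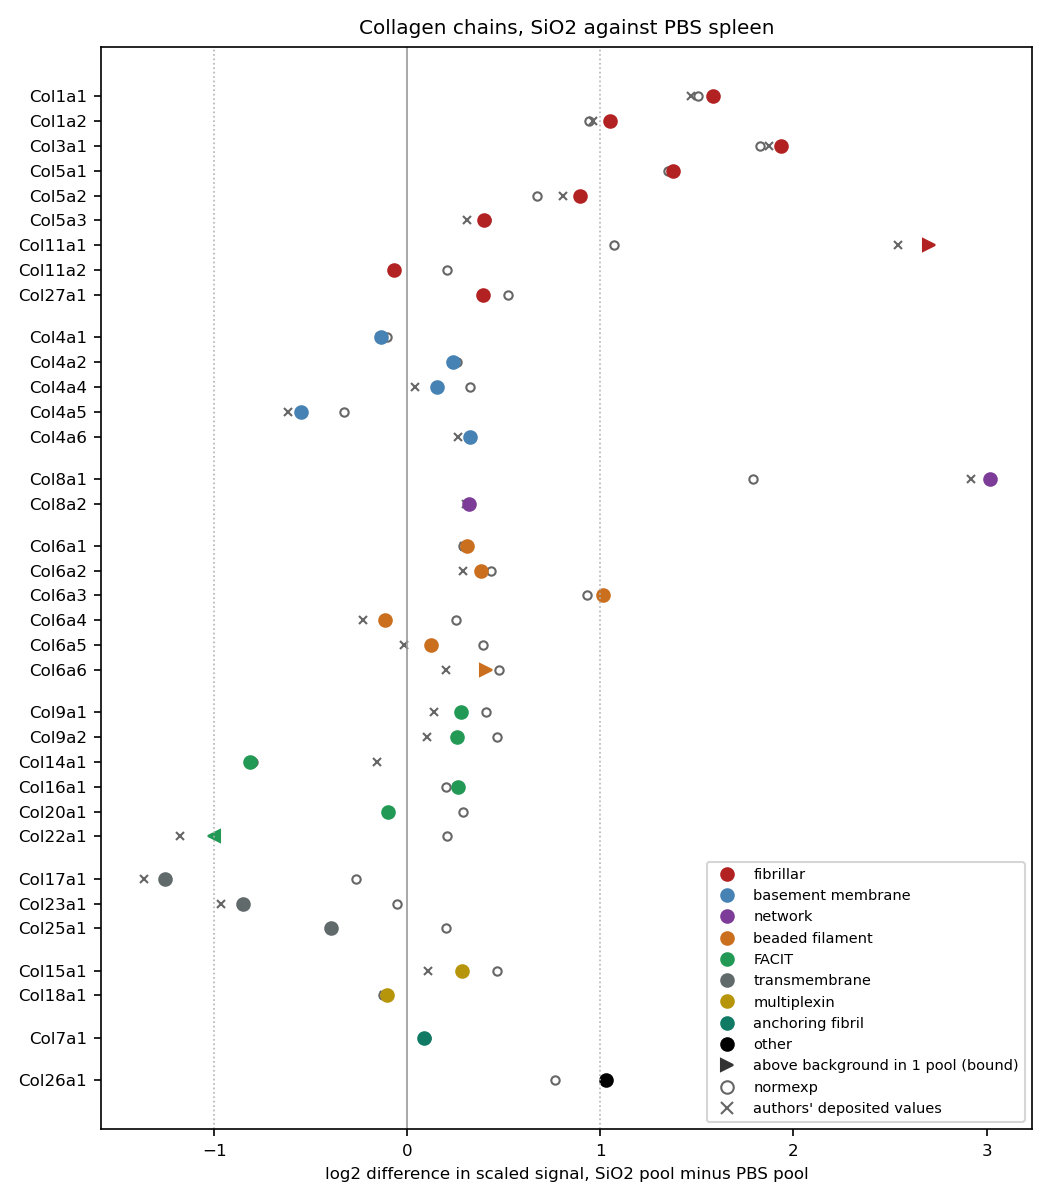
Each row is 1 of the 35 collagen chains above background in at least 1 pool, grouped by class, and the x axis is the log2 difference in scaled signal, SiO2 pool minus PBS pool. Filled points are the values of the text, triangles are bounds, open circles are normexp values, crosses are the authors' deposited values, and dotted lines mark 2-fold. Col8a1 (3.02) and Col11a1 (2.70) lie farthest to the right, most fibrillar chains lie right of 0, and Col17a1 (-1.26) lies farthest to the left.

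Among the fibrillar chains, those of types I, III and V that make up the common fibrils of soft tissue were higher in the SiO2 pool. Col3a1, the chain of the type III homotrimer of reticular fibres, had a scaled signal of 21.3 in the SiO2 pool, against 5.57 in the PBS pool, a 3.82-fold difference. Col1a1, the alpha 1 chain of type I collagen, stood at 38.7 in the SiO2 pool and 12.9 in the PBS pool (3.00-fold). Its partner Col1a2, the alpha 2 chain, was at 15.0 in the SiO2 pool and 7.26 in the PBS pool (2.07-fold). Col1a1 thus differed by 0.53 more on the log2 scale than Col1a2, and this gap was 0.56 under normexp, 0.50 in the authors' deposited values and 0.51 after quantile normalization. Col1a2 was 0.94 as a log2 difference with normexp, 0.96 in the authors' deposited values and 0.96 after quantile normalization, each short of 2-fold.

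Type V collagen co-assembles with type I and sets the start and width of its fibrils. Col5a1 had a scaled signal of 3.66 in the SiO2 pool and 1.41 in the PBS pool, or 2.60-fold higher. Col5a2 was at 0.155 in the SiO2 pool and 0.0834 in the PBS pool, a difference of 0.89 on the log2 scale. Col5a3 was at 0.115 in the SiO2 pool and 0.0875 in the PBS pool, with a difference of 0.40. The order of differences among the type V chains, Col5a1 above Col5a2 above Col5a3, was the same under normexp and after quantile normalization. The gap between Col5a1 and Col5a3 was 0.98 on the log2 scale, 0.94 under normexp and 1.02 after quantile normalization.

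Col11a1, a minor chain of cartilage fibrils that activated fibroblasts can also make, was well above background in the SiO2 pool only. Its unscaled signal was 33.6 in the SiO2 pool and 1.58 in the PBS pool. Against the lowest PBS signal well above background, 7.37, it was at least 6.50-fold higher after scaling. Under normexp the log2 difference of Col11a1 was 1.07 in place of 2.70. Its partner Col11a2 was at 0.112 in the SiO2 pool and 0.118 in the PBS pool, a difference of -0.07, or 0.20 under normexp and 0.27 with B and T cell markers centred. Col27a1, another cartilage-associated chain, was at 0.0337 in the SiO2 pool and 0.0257 in the PBS pool (0.39), which lies within the 95th percentile of the spot standard deviation at that signal, 0.427. The cartilage markers gave no like difference: of Acan, Sox9 and Comp, 0 were past 2-fold, beside 6.62% higher and 3.69% lower among all named genes. Their median was 0.11, and Matn1 was not above background. The part of cartilage markers in the type XI values was not tested.

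Of the 8 collagens that were higher by 2-fold or more, 4 had signals over 500 in both pools, and all 4 were fibrillar: Col1a1, Col1a2, Col3a1 and Col5a1. Their unscaled signals in the SiO2 pool were 18171, 7043, 9983 and 1717, against 8655, 4859, 3726 and 943 in the PBS pool. Among all collagens with a mean signal over 500, 4 of 8 were higher by 2-fold or more, where 6.31% of all named genes in that range were. With a mean signal under 50 there was 1 of 15, where 6.55% of named genes were. The plot of scaled signals shows both ranges.

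**Figure D2:**
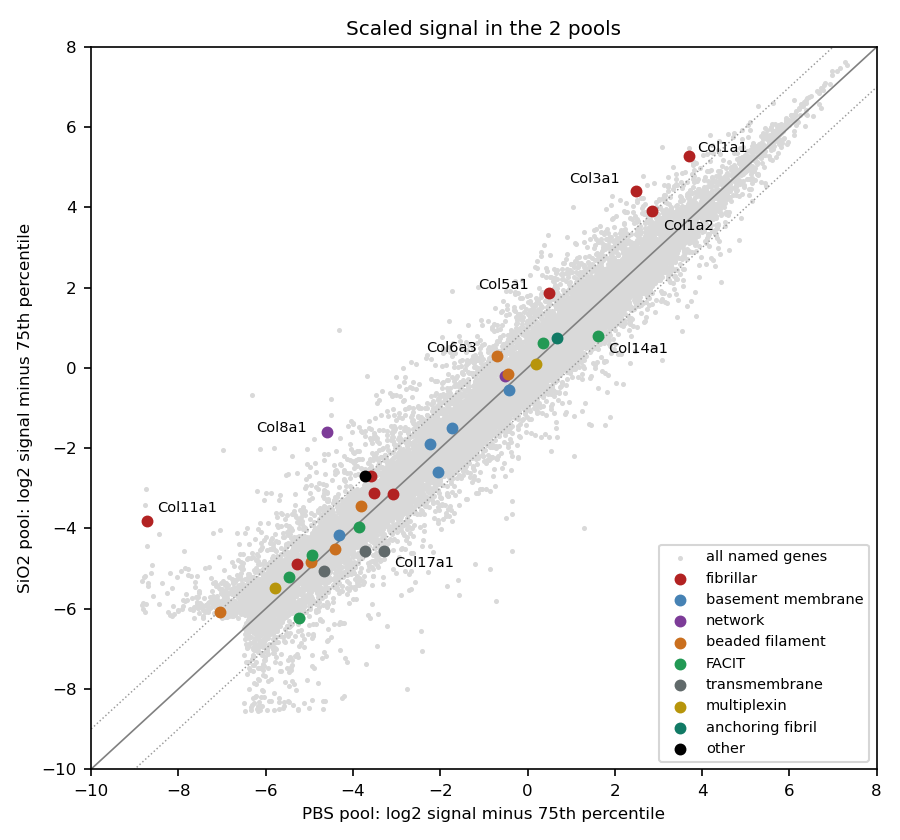
Each point is a gene by its log2 signal minus the array's 75th percentile in the PBS pool (x) and the SiO2 pool (y), with named genes in grey and collagens coloured by class. The solid line marks equal values and the dotted lines 2-fold. Col1a1, Col3a1 and Col5a1 lie above the upper dotted line at high signal, Col8a1 and Col11a1 above it at low signal, and Col17a1 below the lower one.

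Outside the fibrils, the chain with the largest difference was Col8a1, which forms the short-chain lattice of vessel walls and of the membrane behind the cornea. Its scaled signal was 0.333 in the SiO2 pool and 0.0411 in the PBS pool, 8.09-fold higher and rank 17 of 16774 genes. Col8a1 rested on a PBS signal of 27.5 before scaling, against 156 in the SiO2 pool, and under normexp the log2 difference was 1.79 in place of 3.02. Col8a2, the partner chain, was at 0.874 in the SiO2 pool and 0.701 in the PBS pool, a difference of 0.32. The gap between both type VIII chains was 2.70 on the log2 scale, 1.46 under normexp and 2.62 in the authors' deposited values.

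Type VI collagen forms beaded microfibrils around cells from the alpha 1, alpha 2 and alpha 3 chains. Col6a3 had a scaled signal of 1.23 in the SiO2 pool and 0.611 in the PBS pool, 2.02-fold higher. Col6a1 was at 0.906 in the SiO2 pool and 0.731 in the PBS pool (0.31 on the log2 scale), and Col6a2 at 0.0919 in the SiO2 pool and 0.0704 in the PBS pool (0.38). As with types I and VIII, the chains of 1 assembly differed by unequal amounts: Col6a3 stood 0.70 above Col6a1 and 0.63 above Col6a2. The log2 difference of Col6a3 fell short of 1 under normexp, at 0.93. The later-described chains were dim. Col6a4 was at 0.0436 in the SiO2 pool and 0.0472 in the PBS pool (-0.11, or 0.25 under normexp), and Col6a5 at 0.0347 in the SiO2 pool and 0.0319 in the PBS pool (0.12, or -0.02 in the authors' deposited values). Col6a6 was well above background in the SiO2 pool only, with unscaled signals of 6.86 in the SiO2 pool and 5.02 in the PBS pool. By the scaling of the text Col6a6 was at least 1.33-fold higher (0.41), but 0.20 in the authors' deposited values and after quantile normalization. The value of 0.41 lay within the 95th percentile of the spot standard deviation at that signal, 0.427. Col26a1, a chain outside these classes, was at 0.154 in the SiO2 pool and 0.0752 in the PBS pool, 2.04-fold higher, or 0.76 as a log2 difference with normexp.

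The stretches before the gene starts are shown for the chains past 2-fold that have an entry in the table used: Col3a1, Col1a2, Col5a1, Col11a1, Col8a1 and Col6a3, all higher in the SiO2 pool, and Col17a1, the chain that was lower. Col1a1 and Col26a1 have none there. Each line gives the 250 bases upstream of the start in RefSeq (build GRCm38.p6), 5′ to 3′ on the gene's strand. Capitals mark matches on either strand to TATAAA (the TATA box), CCAAT (the box of factor NF-Y), GGGCGG (the GC box of factor Sp1) or TGACTCA (the AP-1 site).
Col3a1 (chr1:45311288-45311537, plus strand): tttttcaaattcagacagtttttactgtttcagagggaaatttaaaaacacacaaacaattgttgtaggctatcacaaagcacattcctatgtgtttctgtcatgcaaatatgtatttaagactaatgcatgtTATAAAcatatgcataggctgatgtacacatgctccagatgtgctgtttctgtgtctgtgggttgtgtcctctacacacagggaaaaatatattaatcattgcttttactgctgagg
Col1a2 (chr6:4505368-4505617, plus strand): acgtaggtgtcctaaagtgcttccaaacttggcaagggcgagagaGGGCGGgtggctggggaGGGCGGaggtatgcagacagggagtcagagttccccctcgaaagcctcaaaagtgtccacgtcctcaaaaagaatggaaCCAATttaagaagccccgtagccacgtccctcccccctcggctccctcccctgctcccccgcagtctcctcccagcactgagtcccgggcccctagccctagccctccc
Col5a1 (chr2:27886175-27886424, plus strand): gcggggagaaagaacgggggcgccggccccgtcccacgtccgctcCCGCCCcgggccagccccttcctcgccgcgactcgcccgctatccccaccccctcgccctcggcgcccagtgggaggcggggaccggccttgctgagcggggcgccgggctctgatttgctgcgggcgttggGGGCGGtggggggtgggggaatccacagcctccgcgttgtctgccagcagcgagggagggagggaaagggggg
Col11a1 (chr3:114030290-114030539, plus strand): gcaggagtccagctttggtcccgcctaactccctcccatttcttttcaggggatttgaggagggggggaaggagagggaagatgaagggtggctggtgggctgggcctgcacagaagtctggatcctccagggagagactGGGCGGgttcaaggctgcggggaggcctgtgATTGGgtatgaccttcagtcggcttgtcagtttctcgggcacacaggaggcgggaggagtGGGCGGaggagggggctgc
Col8a1 (chr16:57754738-57754987, minus strand): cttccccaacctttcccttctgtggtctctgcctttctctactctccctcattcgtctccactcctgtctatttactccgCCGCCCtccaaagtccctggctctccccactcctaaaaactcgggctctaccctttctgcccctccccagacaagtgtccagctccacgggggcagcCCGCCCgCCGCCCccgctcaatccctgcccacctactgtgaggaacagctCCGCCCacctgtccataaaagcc
Col6a3 (chr1:90843972-90844221, minus strand): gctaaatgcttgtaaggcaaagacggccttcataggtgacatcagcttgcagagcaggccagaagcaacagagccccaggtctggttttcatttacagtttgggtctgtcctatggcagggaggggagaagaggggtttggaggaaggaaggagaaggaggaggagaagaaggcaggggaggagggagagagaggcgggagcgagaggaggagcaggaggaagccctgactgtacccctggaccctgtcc
Col17a1 (chr19:47692043-47692292, minus strand): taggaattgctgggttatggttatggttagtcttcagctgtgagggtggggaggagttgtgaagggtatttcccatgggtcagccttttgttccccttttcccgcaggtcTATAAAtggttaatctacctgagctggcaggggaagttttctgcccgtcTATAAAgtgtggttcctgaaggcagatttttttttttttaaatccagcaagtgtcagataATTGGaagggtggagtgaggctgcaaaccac
Of the 43 collagens on the array, 35 had an entry, with 38 windows in all. TATAAA stood in 13.2% of collagen windows and 12.4% of 32851 windows over all genes, and CCAAT in 34.2% of collagen windows and 33.8% of all. GGGCGG stood in 57.9% of collagen windows and 32.7% of all, beside a median GC content of 59.0% in collagen windows and 52.4% in all. TGACTCA stood in 2.63% of collagen windows and 4.46% of all. Matches were taken anywhere in the window, whatever their distance from the start. In Col3a1 the only match was TATAAA, with its first base at -117 from the start. In Col5a1 and Col8a1 only GGGCGG matched, and Col1a2 and Col11a1 had CCAAT and GGGCGG. Col17a1 had CCAAT and TATAAA, the latter at -140 and -91, and Col6a3 had none of these letters in its window. No one motif stood in all of these windows, and no match of 1 motif overlapped a match of another in any collagen window.

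Basement membrane chains had 0 of 5 past 2-fold by their brightest probe, beside 6.62% higher and 3.69% lower among all named genes. Col4a1, which with Col4a2 makes the ubiquitous type IV network of vessel walls, had a scaled signal of 0.678 in the SiO2 pool and 0.744 in the PBS pool, a difference of -0.13 that was 0.21 with B and T cell markers centred. Col4a2 was at 0.354 in the SiO2 pool and 0.300 in the PBS pool (0.24). These 2 genes lie head to head on opposite strands, with RefSeq starts 21 bases apart and 5′ ends that overlap. Col4a4, a chain of the kidney and lung network, was at 0.0555 in the SiO2 pool and 0.0499 in the PBS pool (0.15). Col4a5 was at 0.166 in the SiO2 pool and 0.242 in the PBS pool, a difference of -0.55 and the lowest of the class. Col4a6, which neighbours Col4a5 on the X chromosome, was at 0.267 in the SiO2 pool and 0.213 in the PBS pool (0.33), but its other probe gave -1.57. Averaging all probes of each gene turned the class median of 0.15 to -0.13, so its sign was not settled. In the authors' deposited values it was -0.050 over 4 chains, since Col4a2 has no value there. The fibrillar median stood 0.89 above it on the log2 scale, and 0.68 above it under normexp. The endothelial markers were 8 of 8 above background, with a median of 0.0032. Of them 0 were past 2-fold, beside 6.62% higher and 3.69% lower among all named genes. Their summed scaled signal was 13.5 in the SiO2 pool and 17.3 in the PBS pool (6328 and 11565 before scaling).

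Chains linked to basement membranes by other assemblies were also within 2-fold by their brightest probe. Among all named genes, 6.62% were higher and 3.69% lower by 2-fold or more. Col18a1, the source of the anti-angiogenic fragment endostatin, was at 1.06 in the SiO2 pool and 1.14 in the PBS pool (-0.11, or 0.23 with B and T cell markers centred). The other probe of Col18a1 gave -0.57. Col15a1, a relative of Col18a1, was at 0.0222 in the SiO2 pool and 0.0182 in the PBS pool (0.28). Its unscaled signals were 10.4 in the SiO2 pool and 12.2 in the PBS pool, and the other probe measured in both pools gave 0.86. Col7a1, which forms the anchoring fibrils under epithelium, was at 1.69 in the SiO2 pool and 1.59 in the PBS pool (0.09).

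**Figure D3:**
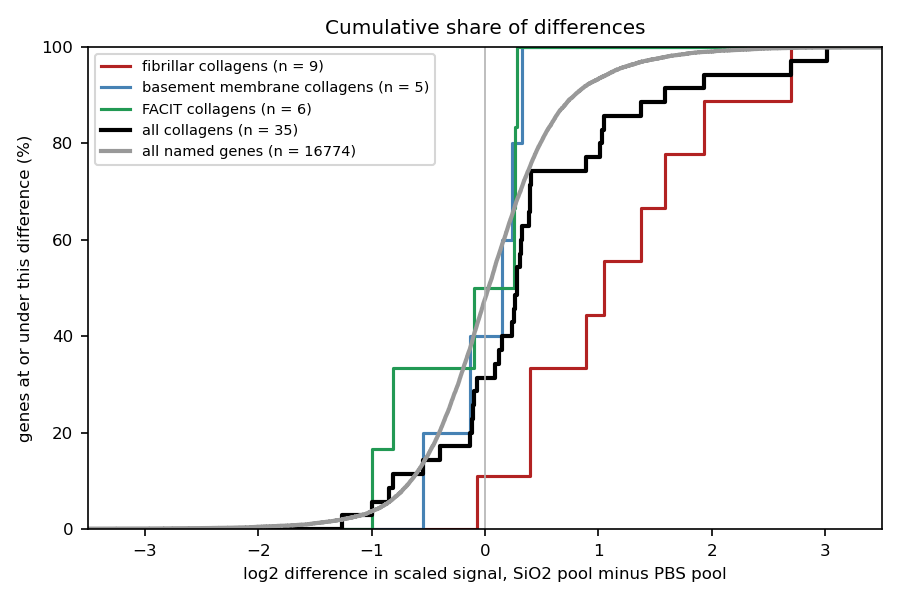
For each difference on the x axis (log2, SiO2 pool minus PBS pool), the y axis gives the percent of genes at or under it, for the 9 fibrillar, 5 basement membrane and 6 FACIT collagens, all 35 collagens and all 16774 named genes. The fibrillar curve has its median at 1.05 and ends at 2.70, while the curves of the basement membrane (median 0.15) and FACIT chains (median 0.08) end at 0.33 and 0.28.

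FACIT chains had a median difference of 0.08, or -0.04 after quantile normalization and -0.07 with the mean over probes, with 3 above 0 and 3 below. Col14a1, which binds fibrils and marks fibroblasts of mature connective tissue, had a scaled signal of 1.73 in the SiO2 pool and 3.04 in the PBS pool, a difference of -0.81. Its other probe, with unscaled signals of 64.7 in the SiO2 pool and 96.8 in the PBS pool, gave -0.07. Col16a1 was at 1.54 in the SiO2 pool and 1.28 in the PBS pool (0.26), while the other probe measured in both pools gave -0.68. The cartilage chains Col9a1 and Col9a2 gave 0.28 and 0.26, with scaled signals of 0.0398 and 0.0272 in the SiO2 pool and 0.0328 and 0.0228 in the PBS pool. Col20a1 was at 0.0639 in the SiO2 pool and 0.0685 in the PBS pool (-0.10, or 0.29 under normexp). Col22a1, a chain of tissue junctions such as that of muscle and tendon, was well above background in the PBS pool only. Its unscaled signals were 6.20 in the SiO2 pool and 17.7 in the PBS pool, a log2 difference of -0.999, which is a bound just short of 2-fold. Under normexp Col22a1 was at 0.20.

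Transmembrane chains were dim and below 0, except Col25a1 under normexp. Col17a1, the hemidesmosome collagen that ties epithelium to its basement membrane, had a scaled signal of 0.0426 in the SiO2 pool and 0.102 in the PBS pool, 2.39-fold lower in the SiO2 pool. Before scaling these were signals of 20.0 in the SiO2 pool and 68.1 in the PBS pool, and under normexp the difference of Col17a1 was -0.27 in place of -1.26. Col23a1 was at 0.0423 in the SiO2 pool and 0.0762 in the PBS pool (-0.85, or -0.06 under normexp), and the other probe measured in both pools gave -0.29. Col25a1, first known from nerve tissue, was at 0.0301 in the SiO2 pool and 0.0396 in the PBS pool (-0.40, or 0.20 under normexp). Under normexp the median of this class was -0.06 in place of -0.85, while the median of all named genes lay 0.15 higher than in the values of the text.

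Markers of the mesothelium, the epithelium-like cover of the spleen, were mostly lower in the SiO2 pool. Of 8 such markers, 6 were lower by 2-fold or more in the SiO2 pool, 3 of them as bounds, where 3.69% of all named genes were. With normexp 5 of the markers were lower, where 1.54% of named genes were. The median of the mesothelial markers was -3.83, or -1.11 with normexp. Their summed scaled signal was 0.835 in the SiO2 pool and 5.30 in the PBS pool (392 and 3548 before scaling). The mesothelial genes Upk1b, Krt19, Krt8 and Bnc1 were not well above background in the SiO2 pool. Smooth muscle markers had 1 of 6 lower by 2-fold or more, Cnn1, beside 3.69% of all named genes, and all 6 were below 0. Their summed scaled signal was 13.2 in the SiO2 pool and 24.9 in the PBS pool (6185 and 16678 before scaling). Fibroblast markers had 1 of 8 higher by 2-fold or more, Lum, a fibril-binding proteoglycan, beside 6.62% of all named genes. The median of the fibroblast markers was 0.14. Of these 8, 6 were above 0, while the proteoglycan Dcn (-0.86) and Dpt (-0.05, or 0.16 with normexp) were below it. Their summed scaled signal was 21.1 in the SiO2 pool and 22.5 in the PBS pool. Thy1, which T cells also express, made up unscaled signals of 4651 in the SiO2 pool and 6447 in the PBS pool, of sums of 9884 and 15058. The broad fibroblast receptors Pdgfra and Pdgfrb gave 0.09 and 0.27. The part of these cell types in the collagen values was not tested. The markers of the labelled tissue were present: 8 of 8 B cell markers were above background, with a median of -0.54, and 8 of 8 T cell markers, with a median of -0.25.

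Several probes were well above background in both pools for 8 chains, and in 5 of them all such probes had the same sign. The exceptions were Col4a6, Col16a1 and Col20a1. None of the 8 chains that were higher by 2-fold or more had a second probe above background, so these values rest on 1 probe each. All 8 chains with several such probes were within 2-fold by their brightest probe, and 1 further probe, of Col4a6, lay past it. That probe had unscaled signals of 11.2 in the SiO2 pool and 47.7 in the PBS pool.

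**Figure D4:**
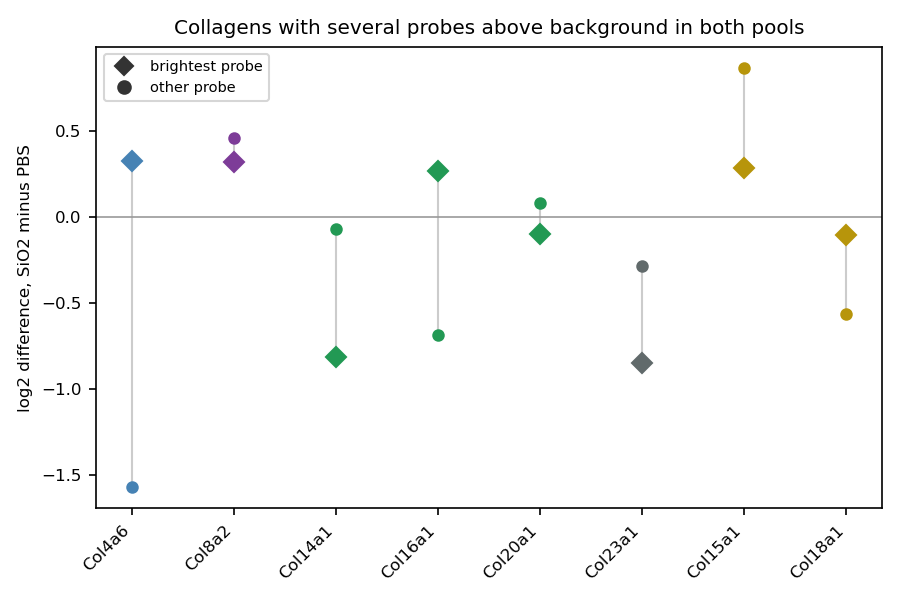
The y axis is the log2 difference of each probe, SiO2 pool minus PBS pool, for the 8 collagens with several probes above background in both pools. Diamonds are the brightest probe and circles the others, coloured by class. The probes of Col4a6 lie farthest apart, at 0.33 and -1.57, and those of Col8a2 lie at 0.32 and 0.46.

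Genes that fold and modify collagen were all within 2-fold. Of 21 genes of collagen folding and modification in the endoplasmic reticulum, 0 were past 2-fold. Among all named genes, 6.62% were higher and 3.69% lower by 2-fold or more. The median difference of these 21 genes was -0.10, with 7 above 0. Serpinh1, the collagen chaperone, was at -0.16, P4hb, a subunit of prolyl hydroxylase, at 0.26, and Colgalt2, the member at the median, at -0.10. Colgalt2 was above background in the PBS pool only. Unscaled signals of Serpinh1 were 3645 in the SiO2 pool and 5817 in the PBS pool. With B and T cell markers centred, Serpinh1 was at 0.18 and Colgalt2 at 0.24.

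Of 11 measured genes of procollagen processing and cross-linking, 1 was higher by 2-fold or more and 2 lower, with a median of 0.24, where 6.62% of all named genes were higher and 3.69% lower. Lox, which cross-links fibrils, had unscaled signals of 106 in the SiO2 pool and 26.6 in the PBS pool. It was 5.70-fold higher after scaling, and 1.47 as a log2 difference with normexp. Pcolce2, an enhancer of procollagen cleavage, had unscaled signals of 103 in the SiO2 pool and 421 in the PBS pool and was 2.87-fold lower after scaling. Adamts14, a procollagen N-proteinase, had unscaled signals of 145 in the SiO2 pool and 587 in the PBS pool (2.84-fold lower after scaling). With the mean over its probes Adamts14 was at -0.81 on the log2 scale. Bmp1, the C-proteinase, was at 0.67.

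Collagen receptors had 0 of 10 past 2-fold, beside 6.62% higher and 3.69% lower among all named genes, with a median of 0.01. Ddr2, a receptor for fibrillar collagen, and Itga2, an integrin subunit, were nearest that median at 0.10 and -0.08. Of 10 measured degradation genes, 3 were higher by 2-fold or more and 1 lower, with a median of 0.60, beside 6.62% higher and 3.69% lower among all named genes. The collagenase Mmp8 (5.10-fold), the gelatinase Mmp2 (3.25-fold) and cathepsin K, Ctsk (2.21-fold), were higher in the SiO2 pool, while Mmp13, another collagenase, was 3.80-fold lower in it. As log2 differences with normexp, Mmp2 was at 1.05 in place of 1.70 and Mmp13 at -1.07 in place of -1.93. The partners of basement membrane collagen had 0 of 16 higher by 2-fold or more and 2 lower (6.62% and 3.69% of all named genes), with a median of -0.19, or 0.15 with B and T cell markers centred. The laminin chains Lamc3 and Lamb3 were 2.78-fold and 2.05-fold lower, and as a log2 difference with normexp they were -0.06 and -0.63, so that 0 of 16 were past 2-fold. Lama3, an epithelial laminin chain, was at 0.26, or -0.48 with the mean over its probes. The core chains Lamb1 (0.46) and Lamc1 (-0.21) and the linker Nid1 (-0.17) were within 2-fold, as were Col4a1 and Col4a2.

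**Figure D5:**
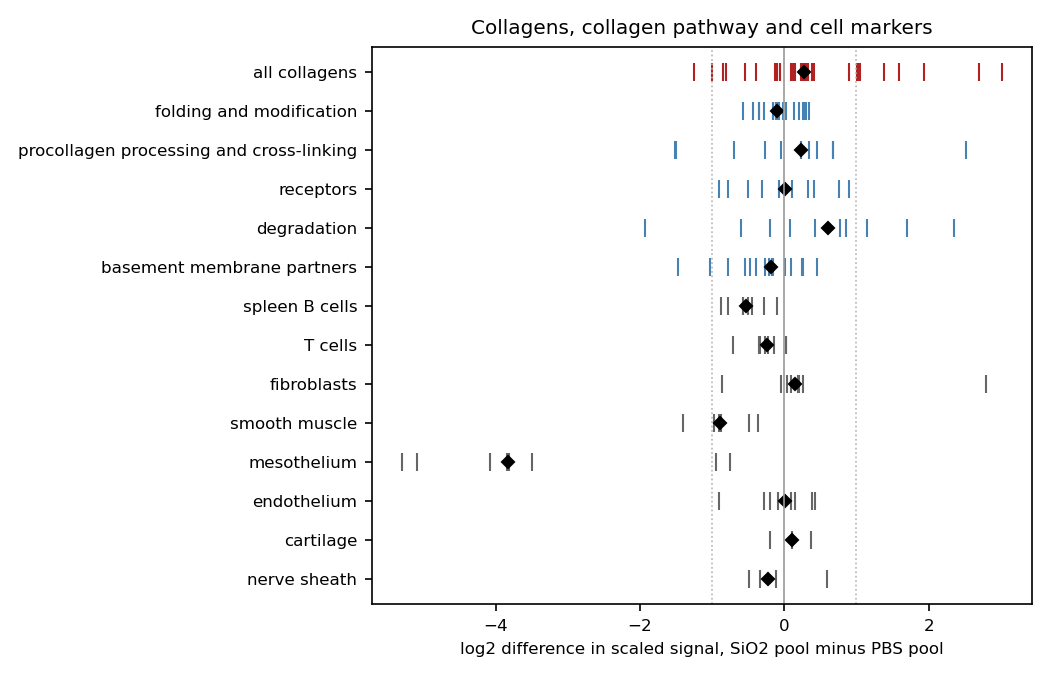
Each tick is a gene by its log2 difference, SiO2 pool minus PBS pool (x axis), for the collagens (red), 5 collagen pathway lists (blue) and 8 lists of cell markers (grey). Black diamonds are list medians and dotted lines mark 2-fold. Folding genes lie within 2-fold around a median of -0.10, and mesothelial markers lie far to the left with a median of -3.83, which was -1.11 with normexp.

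The other 8 collagens on the array were not well above background in either pool: the fibrillar Col2a1 and Col24a1, the basement membrane chain Col4a3, the hypertrophic cartilage chain Col10a1, the FACIT chains Col9a3 and Col19a1, the transmembrane chain Col13a1, and Col28a1, which stands outside these classes. Their unscaled signals ranged between 1.23 and 4.87 in the SiO2 pool and between 1.48 and 6.51 in the PBS pool, and no difference is given for them.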

How the data were processed

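RNA of 2 spleen pools was measured on 1 one-colour (Cy3) array each. The scanner files that the authors deposited give an intensity per spot. They were written by Agilent Feature Extraction 11.0.1.1, per the file headers, although the submitters' processing notes name 9.1. That software had subtracted the background from the intensity used here, per the file headers. The series matrix that the authors deposited lists log2 values for 26049 probes, with a slope of 1.01 (SiO2) and 0.994 (PBS) against log2 of the scanner signal and medians of 5.68 in both columns. Its scale and sign are thus known, and its centring method is unknown here.

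Control spots and outlier flags (148 on the SiO2 array, 145 on the PBS array) were left out, repeated spots were averaged on the log2 scale, and the 75th percentile of each array was subtracted. Probes were named by accession, without version, through the RefSeq table of GRCm38.p6: 27217 of 39398 probes (69.1%) matched 1 symbol. The brightest probe well above background in at least 1 pool stood for a gene. A value not well above background was raised to the lowest value well above it on that array (signals of 6.14 for SiO2 and 7.37 for PBS) where it lay lower, and differences that use a value not well above background are bounds. Counts used 2-fold or more (log2 of 1). The members, classes and gene lists were chosen with earlier results of these data known. All collagens above background are named, and from each pathway list the members past 2-fold or, where there were none, nearest the median. One gene of the basement membrane partner list is not reported here and was left out of its counts. A few others (Serpinh1, P4hb, Bmp1, Lama3, Lamb1, Lamc1, Nid1, and marker genes) were named after their values were seen. Promoter windows are RefSeq's. The steps were tested on simulated data. Normexp (limma 3.58.1, offset 50, R 4.3.3) used the median spot signal, as the files used here have no mean signal column. Other steps used Python 3.11.15. The number of arrays limits the precision.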

Additional observations from a re-analysis of the deposited data

How the results depend on the processing

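No paired analysis was possible because each group has 1 array, and no replicate could be left out for the same reason. Under 7 alternatives the single collagens gave 233 values, of which 219 had the direction of the text and 14 the other, and no collagen past 2-fold turned. Col1a1 (1.47 to 1.92), Col3a1 (1.83 to 2.28), Col5a1 (1.35 to 1.72), Col8a1 (1.79 to 3.36) and Col11a1 (1.07 to 4.92) stayed past 2-fold in each alternative that gave them a value. The authors' values hold no probe of Col5a1, Col6a3 or Col26a1, and Col11a1 drops out where both arrays must be above background. Col1a2, Col6a3, Col26a1 and Col17a1 each fell within 2-fold under at least 1 alternative. Under normexp 5 collagens were 2-fold or more higher and 0 lower, and the medians were 0.94 for fibrillar and 0.26 for basement membrane chains. Normexp raised the median of all genes by 0.15. In the authors' deposited values, with 26 collagens, 4 were higher and 2 lower, and the medians were 0.17 for all collagens, 1.22 for fibrillar and -0.050 for basement membrane chains. The fibrillar median there rests on 6 chains, without Col5a1, Col11a2 and Col27a1, and the basement membrane median on 4, without Col4a2. These medians thus cover other sets of chains than those of the text. Quantile normalization gave 2 lower and medians of 0.17, 0.96 and 0.046. With B and T cell markers centred, which adds 0.34 to every difference, 0 were lower and the medians were 0.62, 1.39 and 0.49. The mean over probes gave -0.13 for basement membrane chains, through the second probe of Col4a6. Only probes above background on both arrays gave a fibrillar median of 0.97, without Col11a1. The cause of the other shifts was not tested. Signal over background limits the dim chains: 15 of 35 had a mean signal under 50, and 12 differences lay within the 95th percentile of the spot standard deviation.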

Other observations

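Collagen genes that neighbour each other on a chromosome in RefSeq formed 8 pairs among protein-coding genes, of which 6 had both members measured. Col3a1 and Col5a2, fibrillar chains that stand side by side on chromosome 1, had log2 differences of 1.93 and 0.89. The type VI neighbours Col6a2 and Col6a1 on chromosome 10 gave 0.38 and 0.31. On chromosome 9, Col6a6, Col6a5 and Col6a4 gave a bound of 0.41, 0.12 and -0.11. The type IV neighbours Col4a1 and Col4a2 gave -0.13 and 0.24, and Col4a6 and Col4a5 gave 0.33 and -0.55. With the mean over probes Col4a6 was at -0.62, and with B and T cell markers centred Col4a1 and Col4a2 were at 0.21 and 0.58. These are values of single probes in 1 pool of each group, and the 3 chains on chromosome 9 have signals near background.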
